A study of Saccharomyces cerevisiae with 6 samples.

Results

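The 56 yeast genes for the ribosomal proteins of the cytosolic small subunit were measured on 6 arrays in a comparison between myo1Δ cells and wild type cells. They were chosen by name alone, as RPS followed by digits and, for paralogs, a final A or B. They made up 56 of the 6256 genes on the array and 93 of its 10263 spots. Of the 56 genes, 48 formed 24 pairs of copies that encode the same or nearly the same protein, and the other 8 were single-copy genes. All 56 names were found in the RefSeq gene table (assembly R64). No filter on low values was applied, and all 56 entered the fit over 6 arrays.

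Saccharomyces cerevisiae RNA was hybridized to 6 Agilent 2-colour oligonucleotide arrays, each carrying RNA of a mutant and of its wild type control in opposite dyes. On arrays 1 to 3 the strains were YJR13 (MATa trp1 ura3 leu2-3 his3Δ1 myo1Δ::HIS5+) and YJR12 (MATα trp1 ura3 leu2-3 his3Δ1), which are haploid segregants of a cross between YJR6 and BY4741. On arrays 4 to 6 they were YJR6 (MGD353-46D myo1Δ::HIS5+) and its parent MGD353-46D (MATα his3Δ1, with mutant alleles of TRP1, URA3 and LEU2). Cultures reached an optical density of 0.5 to 0.8 at 26°C with 2% glucose, in complete synthetic medium or in the same medium without histidine. All 4 strains thus carried a his3 mutation and only the mutants carried HIS5+, so a wild type strain could not grow without histidine. The paper's wording pairs medium without histidine with the mutants and complete medium with the wild types, but does not list it by array. On that reading medium and genotype cannot be told apart. YJR13 and YJR12 also differed in mating type. All 4 strains were further listed as ADE+ and cyhR, with ARG+ given for YJR12 and ARG for the others. MYO1, the myosin II heavy chain gene that was deleted, was lower on all 6 arrays, with a log2 ratio of -3.53 to -1.45. The image name in the header of array 1 was that of array 2, and the labels were followed for dye and strain pair. The slide of each array was read from the image name, so placing array 1 on slide 1 rests on that header.

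The small subunit of the ribosome binds the mRNA, scans it for the start codon and pairs each codon with its tRNA. Its proteins hold the 18S rRNA in a body with a platform and a mobile head, and the mRNA runs through the channel between head and body. In yeast the genes for ribosomal proteins are among the most highly transcribed by RNA polymerase II, they are switched together by nutrient signals through TOR, protein kinase A, Sfp1 and the Fhl1-Ifh1 activator, and most of the proteins are encoded by a pair of copies left from an ancient genome duplication. A ratio on these arrays compares equal amounts of labelled RNA, so it gives a gene's share of the mRNA and not molecules per cell.

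RPS mRNAs were lower in the myo1Δ strains. Every one of the 56 genes had a mean log2 ratio (mutant over wild type) below 0, and the median of the 56 means was -1.11, against 0.00079 over all 6256 genes. In the fit over 6 arrays (limma, Benjamini-Hochberg adjusted over all genes), 25 of the 56 were down regulated at an adjusted p of 0.01, where the background was 3.96% of all genes. At an adjusted p of 0.05, 47 of 56 were down regulated, with a background of 12.9%. None was up regulated at an adjusted p of 0.01 (background 3.47%), at 0.05 (background 14.2%) or at an unadjusted p of 0.05. The fall was over 2-fold in 36 genes, and all of these were among the 47. Quartiles of the 56 means were -1.35 and -0.85.

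The array values showed the same direction almost throughout. Of the 333 log2 ratios measured, 319 were below 0. Of the 53 RPS genes with a value on every array, 44 were lower on all 6, where the background was 13.9% of genes. RPS1A and RPS10A had no value on array 1, and RPS19B had none on array 5, because their spots there were marked poor by the image software. Their means rest on 5 arrays each.

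**Figure D1:**
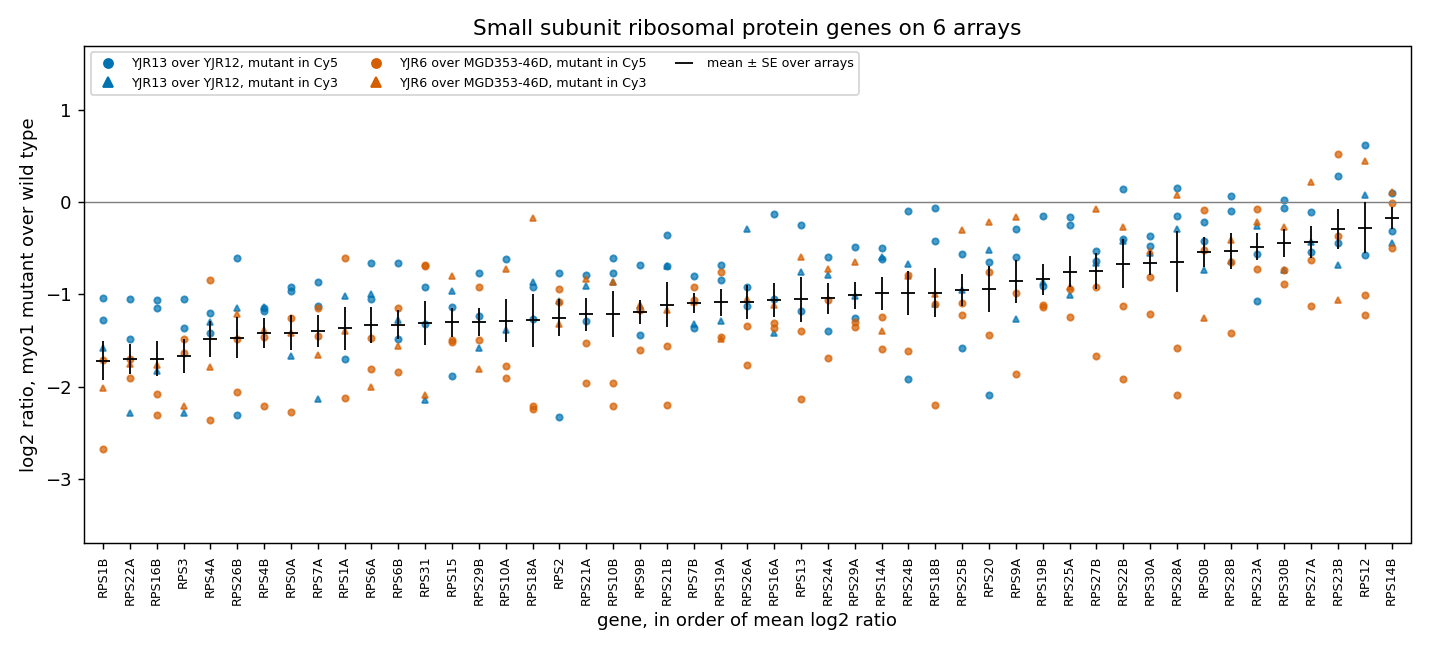
Log2 ratio of 49 of the 56 RPS genes on 6 arrays (vertical axis), in order of the mean (horizontal axis). Colour marks the strain pair, shape the dye of the mutant sample, and the black bar the mean with its SE. All means lie below 0, from -1.72 for RPS1B to -0.17 for RPS14B.

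The size of the fall differed between arrays. The median log2 ratio of the RPS genes was -0.60, -0.96, -1.13, -1.61, -1.06 and -1.24 on arrays 1 to 6, an SD of 0.330. Array 4 gave the lowest value for 31 of the 56 genes and array 1 gave the highest for 29. Leaving out array 2 or array 6 left 1 RPS gene at an adjusted p of 0.01 (limma) and the share of all genes fell to 0.032% and 0.176%. At 0.05, 35 and 34 RPS genes then passed, with 6.78% and 7.67% of all genes. Without array 1, 4 or 5 the RPS counts at 0.01 were 11, 6 and 11, with 0.911%, 0.639% and 1.74% of all genes.

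The 82 large subunit genes (RPL and RPP) were close to the RPS genes. Their medians by array were -0.72, -1.07, -1.20, -1.50, -0.97 and -1.21, and the median of their means was -1.11. At an adjusted p of 0.01 (limma), 40 of the 82 were lower, where the share of all genes was 3.96%, and at 0.05 65 of them, where it was 12.9%. The 20 genes for the small subunit of the mitochondrial ribosome had a median of -0.0033, with 1 lower and 2 higher at 0.05, below the shares of all genes (12.9% and 14.2%).

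**Figure D2:**
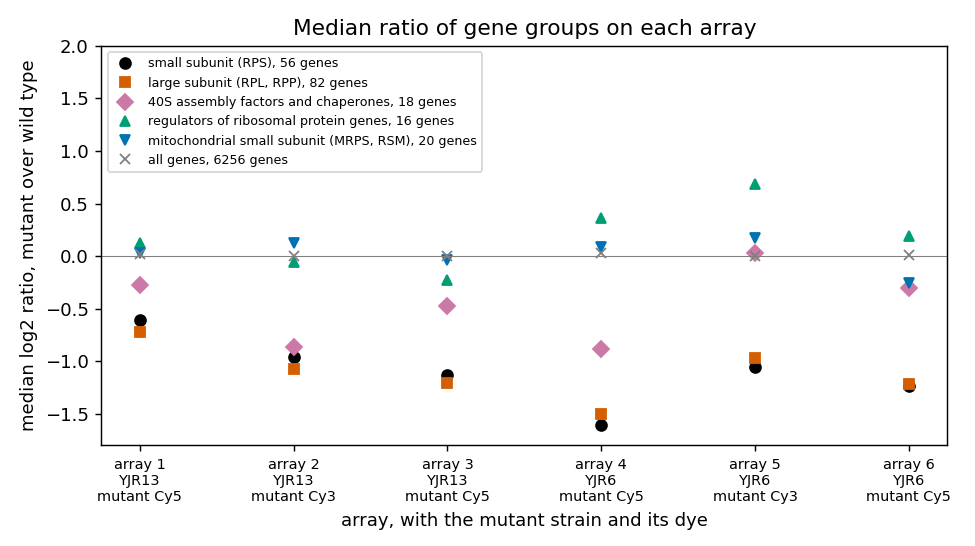
Median log2 ratio (vertical axis) of 6 gene groups on each of the 6 arrays (horizontal axis, with the mutant strain and its dye). The RPS medians run from -0.60 on array 1 to -1.61 on array 4, next to those of the large subunit genes, and the medians of all genes lie near 0.

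The genes were also grouped by the place and conservation of their proteins. The 22 genes for 14 head proteins had a median of -1.09, and 19 of them were down regulated at an adjusted p of 0.05. The 34 genes for 18 proteins of the body and platform had a median of -1.15, with 28 down regulated. At that threshold 83.9% of the RPS genes and 12.9% of all genes were down regulated. The 24 genes of the 15 proteins shared with bacteria had a median of -1.13, and the 32 genes of the 17 proteins found in eukaryotes, many also in archaea, had a median of -1.11. The 8 single-copy genes had a median of -1.28 and the 48 paired genes -1.10. None of the differences between these medians was tested.

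Of the proteins on the mRNA entry side, RPS3 (YNL178W, chromosome XIV) encodes a head protein that lines the channel. Its log2 ratios were -1.05, -2.29, -1.36, -1.49, -2.21 and -1.64 on arrays 1 to 6. All 6 were below -1, and the lowest values came from arrays 2 and 5, which carried the mutant sample in Cy3. The mean was -1.67 ± 0.18 (SE, n = 6), an adjusted p of 0.00337 (limma) and a 3.19-fold fall. The other entry-side proteins had means of -1.25 for RPS2, -0.86 for RPS9A, -1.19 for RPS9B, -0.65 for RPS30A and -0.44 for RPS30B, and all but RPS30B passed an adjusted p of 0.05 (limma).

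RPS23 carries a conserved loop into the decoding centre, and its genes were among the least changed. RPS23B (YPR132W, chromosome XVI) had log2 ratios of 0.29, -0.68, -0.45, -0.37, -1.06 and 0.52. The arrays split, with arrays 1 and 6 above 0 and the lowest value on array 5. The mean of -0.29 ± 0.22 (SE, n = 6) did not pass the test (adjusted p = 0.355, limma). Its paralog RPS23A was lower on all 6 arrays with a mean of -0.48 and stood just outside the threshold, with an adjusted p of 0.0509 (limma). RPS15, whose tail reaches the same centre from the head, had a mean of -1.30 and was down regulated at 0.01.

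Among head proteins, RPS31 (YLR167W, chromosome XII) encodes ubiquitin fused to a head protein, from which it is cut to supply free ubiquitin. Its log2 ratios were -0.92, -2.15, -1.32, -0.69, -2.09 and -0.68. All 6 arrays were below 0, and arrays 2 and 5, the arrays with the mutant in Cy3, lay apart from the other 4. The mean was -1.31 ± 0.24 (SE, n = 6), with an adjusted p of 0.0110 (limma), just past 0.01. When a dye effect was fitted, the ratio was -1.51 and the adjusted p 0.00540 (limma).

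RPS12 (YOR369C, chromosome XV), which encodes a protein of the beak of the head, was the exception among single-copy genes. Its log2 ratios were 0.62, 0.078, -0.57, -1.002, 0.46 and -1.22. It was above 0 on arrays 1, 2 and 5 and below 0 on arrays 3, 4 and 6, so the arrays did not share a direction. The mean was -0.27 ± 0.27 (SE, n = 6), and the adjusted p was 0.497 (limma). The other 7 single-copy genes were all down regulated at an adjusted p of 0.05, with means of -1.67 to -0.94, the highest being that of RPS20.

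RPS16 is a head protein whose tail touches the tRNA in the peptidyl site. RPS16B (YDL083C, chromosome IV) had log2 ratios of -1.06, -1.83, -1.14, -2.31, -1.76 and -2.08, a mean of -1.70 ± 0.19 (SE, n = 6, adjusted p = 0.00337, limma). RPS16A (YMR143W, chromosome XIII) had -0.12, -1.42, -1.05, -1.31, -1.11 and -1.36, a mean of -1.06 ± 0.18 (SE, n = 6, adjusted p = 0.00874, limma). On array 1 RPS16A lay far from its other 5 values, which spanned -1.42 to -1.05. The remaining head genes with both copies down regulated at 0.05 were those for RPS10, RPS18, RPS19, RPS25 and RPS29, with means of -1.30 (RPS29B) to -0.75 (RPS25A).

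RPS28, a small head protein near the exit of the mRNA channel, had neither copy past 0.05. RPS28A (YOR167C, chromosome XV) had log2 ratios of -0.15, -0.28, 0.16, -2.09, 0.077 and -1.58. Arrays 4 and 6 were low and the other 4 lay between -0.28 and 0.16, so the mean of -0.64 ± 0.33 (SE, n = 6, adjusted p = 0.190, limma) rests on those 2 arrays. RPS28B had a mean of -0.52 and an adjusted p of 0.0867 (limma).

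In the body, RPS7B (YNL096C, chromosome XIV) was the most even of the genes described, and its protein is needed in yeast for processing of the 18S rRNA precursor. Its log2 ratios were -1.36, -1.32, -0.80, -0.92, -1.08 and -1.06, an SD of 0.221 against a median SD of 0.505 over the RPS genes. The mean was -1.09 ± 0.11 (SE, n = 6, adjusted p = 0.00280, limma). RPS7A had a mean of -1.40. The body proteins RPS1, RPS4, RPS6 (the protein phosphorylated through TOR signalling), RPS21, RPS24 and RPS26 had both copies down regulated at 0.05, with means of -1.72 (RPS1B) to -0.98 (RPS24B).

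The members of a pair were then compared with each other on the same array. Their means were correlated over the 24 pairs (r = 0.520, across genes that share the same 6 arrays, and given as a description). In 18 of the 24 pairs both copies were down regulated at an adjusted p of 0.05, in 4 pairs 1 copy was, and in 2 pairs (RPS23 and RPS28) neither was. Taken singly, 40 of the 48 paired genes were down regulated at 0.05, against 12.9% of all genes. Whether the copies of a pair were called together more often than unrelated genes was not tested. The difference between copies was fitted over all 61 pairs on the array named in this way. Of these, 9 differed at an adjusted p of 0.05 (limma), a background of 14.8%. All of the 61 but COX5 and NHP6 were pairs of ribosomal protein genes, so this is no background for genes at large. Of the 24 RPS pairs, 4 differed, a share close to that background. The median size of the difference was 0.251 over RPS pairs and 0.345 over the other 37 pairs. The copies are alike in sequence, and how far each probe reads 1 copy alone was not tested.

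RPS0 is a body protein at the mRNA exit side, related to the laminin receptor of animals. RPS0A (YGR214W, chromosome VII) had log2 ratios of -0.91, -1.67, -0.96, -2.27, -1.42 and -1.26, and RPS0B (YLR048W, chromosome XII) had -0.21, -0.74, -0.42, -0.52, -1.25 and -0.079. Copy A was the lower on all 6 arrays, although the copies' ranges overlapped. Copy A minus copy B was -0.88 ± 0.21 (SE, n = 6, adjusted p = 0.0153, limma), and an exact two-sided sign-flip test gave p = 0.0312, the smallest that 6 arrays allow. RPS0B was itself called at 0.05 (adjusted p = 0.0481, limma), but in 10 of 23 settings only.

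RPS22 is a protein of the core of the body. RPS22A (YJL190C, chromosome X) had log2 ratios of -1.05, -2.29, -1.49, -1.91, -1.75 and -1.70, a mean of -1.70 ± 0.16 (SE, n = 6, adjusted p = 0.00263, limma). RPS22B (YLR367W, chromosome XII) had -0.40, -0.42, 0.14, -1.92, -0.27 and -1.13, a mean of -0.66 ± 0.26 (SE, n = 6, adjusted p = 0.103, limma). The copies matched on array 4, where they differed by 0.011, and copy A was the lower on the other 5. Copy A minus copy B was -1.03 ± 0.25 (SE, n = 6, adjusted p = 0.0153, limma), the largest difference of the 24 pairs, and the exact test gave p = 0.0625.

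RPS14 lies on the platform at the mRNA exit, and in yeast the Rps14 protein binds the RPS14B pre-mRNA and lowers its expression. RPS14A (YCR031C, chromosome III) had log2 ratios of -0.61, -0.60, -0.49, -1.59, -1.39 and -1.25, a mean of -0.99 ± 0.18 (SE, n = 6, adjusted p = 0.0108, limma). RPS14B (YJL191W, chromosome X) had 0.10, -0.44, -0.31, -0.49, 0.11 and -0.0013, a mean of -0.17 ± 0.12 (SE, n = 6, adjusted p = 0.325, limma), the highest of the 56 means. RPS14B stayed within 0.5 of 0 on every array, and copy A was the lower on all 6. Copy A minus copy B was -0.82 ± 0.21 (SE, n = 6, adjusted p = 0.0237, limma, exact p = 0.0312). Within the strain pairs the difference was -0.35 for YJR13 and -1.28 for YJR6. RPS14B lies next to RPS22A in the RefSeq gene order, so the highest mean of the set and one of the 3 lowest belonged to adjacent genes.

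RPS16 was the only pair of the 4 in which copy B was the lower. Copy A minus copy B was 0.64 ± 0.18 (SE, n = 6, adjusted p = 0.0271, limma), above 0 on all 6 arrays from 0.096 to 1.00 (exact p = 0.0312). RPS27, a zinc-binding protein of the platform, showed a smaller difference in the same direction on all 6 arrays. RPS27A (YKL156W, chromosome XI) had log2 ratios of -0.10, -0.43, -0.54, -1.12, 0.22 and -0.63, and RPS27B (YHR021C, chromosome VIII) had -0.53, -0.66, -0.63, -1.67, -0.074 and -0.92. The difference of 0.31 ± 0.16 (SE, n = 6) had an exact p of 0.0312 but did not pass in the fit over pairs (adjusted p = 0.226, limma).

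**Figure D3:**
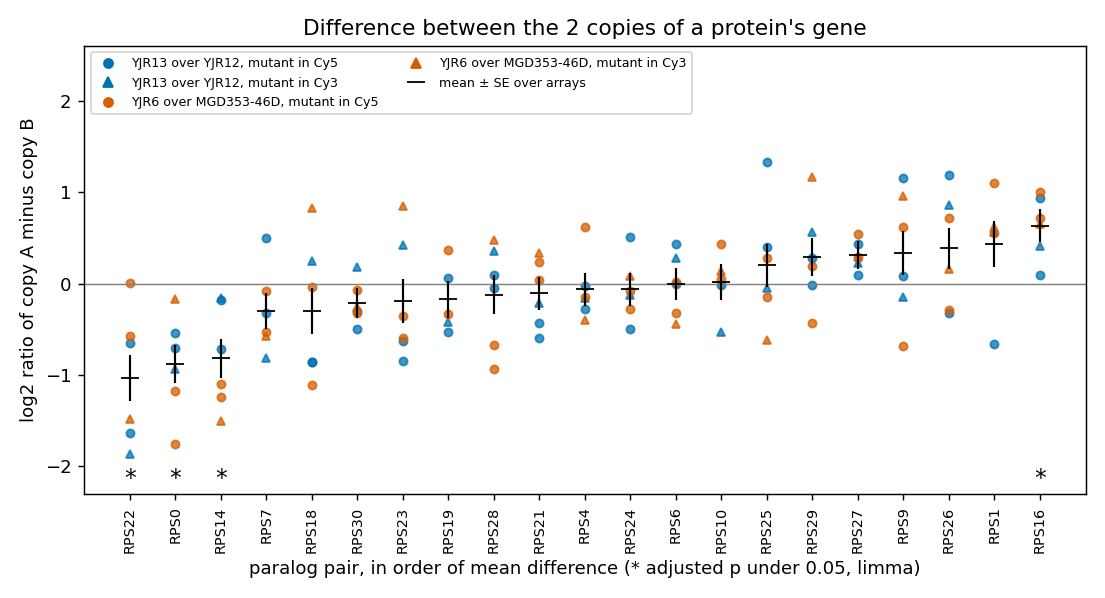
Log2 ratio of copy A minus that of copy B on each array (vertical axis) for 21 of the 24 RPS pairs in order of the mean difference (horizontal axis), with the mean and SE in black. Stars mark the 4 pairs past an adjusted p of 0.05 (limma). RPS0 and RPS14 lie below 0 and RPS16 and RPS27 above 0 on all 6 arrays.

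The calls on pairs depended on single arrays and on the processing. RPS22 was lost with plain background subtraction, with a normexp offset of 0 and without array 5. RPS0 was lost with median normalization and without array 4. Over 22 settings the RPS0 difference passed 0.05 in 20, RPS22 in 19, RPS14 in 18 and RPS16 in 16, with the sign unchanged in each. Without array 4 or array 5, 1 RPS pair passed, and without array 1 or array 6, 2 did.

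Dim signal was found among the 9 RPS genes not called at 0.05 and among called genes. Over the 6 arrays the wild type signal of RPS14B was 1.22 to 4.15 times its local background, that of RPS28A 1.10 to 6.29 times and that of RPS30B 1.14 to 3.48 times. RPS22B, RPS27A and RPS28B also had arrays under 1.3 times background. RPS12, RPS23A and RPS23B were well above it in both channels, at 2.19 times or more. RPS9A and RPS30A, which were called at 0.05, had wild type signals of 1.16 to 3.66 and 1.27 to 3.29 times background. With an offset of 0 the ratio of RPS14B was -0.18, against -0.17 as reported. Over 22 or 23 settings each, RPS28B was called at 0.05 in 3, RPS23A in 4, RPS30B in 1, and RPS12, RPS14B, RPS22B, RPS23B, RPS27A and RPS28A in none.

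The strain backgrounds were compared next. In YJR13 over YJR12 the median of the 56 RPS genes was -0.92, and 55 of the means were below 0, with RPS12 at 0.043 the exception. In YJR6 over MGD353-46D the median was -1.34 and all 56 were below 0. At an adjusted p of 0.05 (limma), 5 genes were lower in the first pair, with a background of 0.671%, and 37 in the second, with a background of 8.2%. At an unadjusted p of 0.05 the counts were 40 (background 10.7%) and 50 (16.9%).

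The ratio was more negative in the YJR6 pair for 47 of the 56 genes. Slide 1 held arrays 1 and 2, both of the YJR13 pair, and slide 3 held arrays 5 and 6, both of the YJR6 pair. Only slide 2, with arrays 3 and 4, held both pairs, and the top arrays were 2, 4 and 6. Strain pair thus cannot be fully told apart from slide and position. No RPS gene differed between pairs at an adjusted p of 0.05 (limma), where the background was 0.0639% of genes. At an unadjusted p of 0.05, 8 did, with a background of 7.56%. RPS14A had the smallest unadjusted p of the 8 (0.00327, limma), with a difference of 0.85 ± 0.18 (SE, 3 arrays against 3) and an adjusted p of 0.554. Its arrays did not overlap between the pairs. RPS28A, which was not among the 8 (unadjusted p = 0.0946, limma), had a difference of 1.11 ± 0.56 (SE, 3 arrays against 3), with an adjusted p of 0.729 (limma). Its arrays in the YJR13 pair lay between -0.28 and 0.16, and in the YJR6 pair arrays 4 and 6 lay below them and array 5 among them, so the pairs overlapped.

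**Figure D4:**
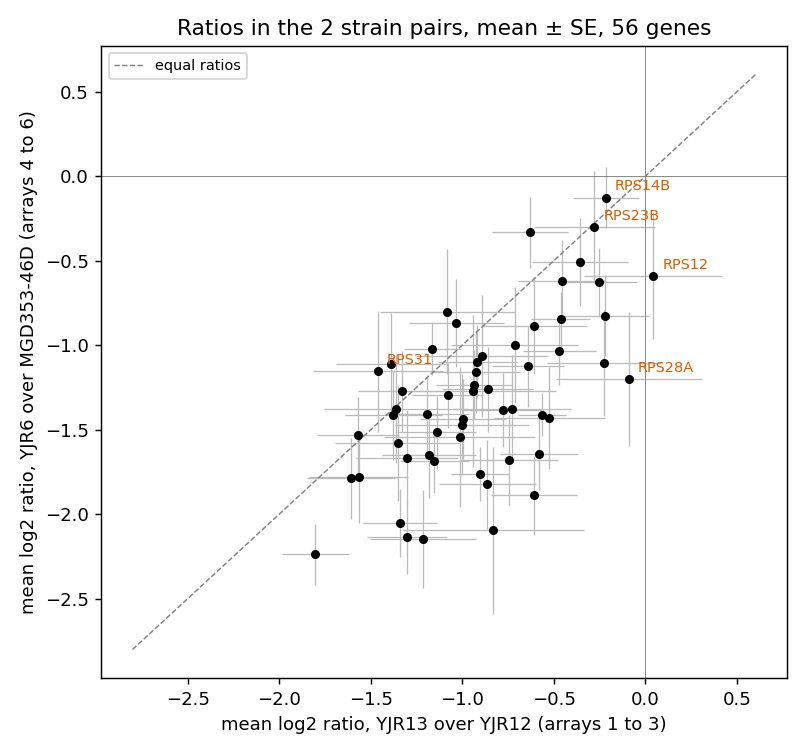
Mean log2 ratio of the 56 RPS genes in YJR13 over YJR12 (horizontal axis) against YJR6 over MGD353-46D (vertical axis), with SE bars from the fit over 6 arrays and a dashed line of equal ratios. Most points, 47 of 56, lie below the line, and RPS12 at 0.043 is the only mean above 0.

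Brightness differed between arrays as well, but not by strain pair alone. The median wild type signal of the RPS spots was 21.0 and 17.2 times background on arrays 4 and 6, both of the YJR6 pair, and 2.94 to 5.53 times on the other 4. Array 5, also of the YJR6 pair, was at 4.07 times. Over all genes it was 2.55 and 2.31 times on arrays 4 and 6 and 1.22 to 1.51 on the others. In the mutant channel the RPS median was 2.67 to 3.56 times on all 6 arrays. The part of brightness in the difference between strain pairs was not tested.

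Dye and slide were examined as batches. The median of the RPS genes was -1.21 over the 4 arrays with the mutant in Cy5 and -0.96 over the 2 with the mutant in Cy3. On slides 1, 2 and 3, which held 2 arrays each, it was -0.76, -1.38 and -1.17, and it was -1.32 over the 3 top arrays and -0.92 over the 3 bottom arrays. At least 54 of the 56 means were below 0 in each of these subsets. With a fixed term for each slide in the model, 0 RPS genes passed an adjusted p of 0.01 (limma), where 1 of all genes did. At 0.05, 41 RPS genes passed, with 8.96% of all genes. All 56 fitted means stayed below 0.

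The ratios of the 56 genes correlated between arrays with r of 0.170 to 0.745 over 15 pairs of arrays, as a description across genes. The highest value joined arrays 2 and 5, which came from different strain pairs and slides and shared the mutant in Cy3. The next, 0.613, joined arrays 4 and 6, of 1 strain pair with the mutant in Cy5. In a model with terms for strain pair and dye, 0 RPS genes of 53 and 0 of 6170 genes differed by dye at an adjusted p of 0.05 (limma). At an unadjusted p of 0.05, 7 RPS genes did, with 10.1% of all genes. RPS31 had the smallest p of these, with means of -0.90 with the mutant in Cy5 and -2.12 in Cy3 (difference -1.21 ± 0.22 SE, adjusted p = 0.421, limma), and RPS3 came next with -1.38 and -2.25.

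Spots of the same gene gave a sense of the technical error. For the 37 genes with 2 spots of the same probe, the median gap between spots on an array was 0.327 in log2 ratio, and the largest was 1.78. The mean intensity of a gene had a weak relation to its mean ratio (r = -0.233 over 56 genes, a description).

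Genes that act with the small subunit did not all share the fall. ASC1 (RACK1 in mammals), a scaffold bound to the head, had log2 ratios of -1.66, -2.11, -2.05, -1.46, -2.41 and -1.78, a mean of -1.91 ± 0.14 (SE, n = 6, adjusted p = 0.00188, limma). STM1, which clamps inactive ribosomes, had a mean of -1.50 ± 0.17 (SE, n = 6, adjusted p = 0.00367, limma). All 6 arrays were below -0.8 for both genes.

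Of 19 assembly factors and chaperones of the small subunit, 18 were found by name (NEP1 was not). Their median was -0.45, with 5 lower and 1 higher at an adjusted p of 0.05 (limma), against a background of 12.9% lower and 14.2% higher. KRR1, needed for 18S rRNA processing, fell most, with a mean of -1.25 ± 0.16 (SE, n = 6, adjusted p = 0.00423, limma). TSR2, the escort of Rps26, had a mean of -0.99 ± 0.26 (SE, n = 6, adjusted p = 0.0313, limma), and DIM1, ENP1 and RRP12 were the other 3 that fell. KRR1 passed 0.05 in all 23 settings, and the other 4 in 14 to 18. RIO1, a kinase of late 40S maturation, rose on all 6 arrays, from 0.21 to 1.82, with a mean of 1.07 ± 0.21 (SE, n = 6, adjusted p = 0.0135, limma), and passed in all 23 settings.

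Of 16 regulators of ribosomal protein genes, 0 were lower and 2 higher at an adjusted p of 0.05 (limma), and the median was 0.19. Among all genes 12.9% were lower and 14.2% higher, so the 2 are no more than the background share. At an unadjusted p of 0.05, 2 were lower and 3 higher, where all genes gave 19.1% and 21.6%. SFP1, a transcription activator of these genes, had log2 ratios of 0.60, 0.99, -0.25, 1.35, 1.52 and 1.03, higher on 5 of 6 arrays, with a mean of 0.87 ± 0.23 (SE, n = 6, adjusted p = 0.0315, limma). TOR1, a kinase of the TOR complex, had a mean of 0.79 ± 0.24 (SE, n = 6, adjusted p = 0.0481, limma). SFP1 passed 0.05 in 15 of 22 settings and TOR1 in 13 of 23.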

How the data were processed

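RNA of myo1Δ and wild type strains was measured on 6 2-colour arrays. The authors scanned the slides and, with ImaGene (6.0.0 per the file headers), made and deposited mean spot and median background intensity in scanner units. The deposited log2 ratios are Cy5 over Cy3 and were recomputed from these intensities to within 4.74e-08. Here background was corrected by normexp (offset 50), ratios were normalized by loess within arrays and turned to mutant over wild type, poor spots (flag 3) were left out, and spots of a gene were averaged. Means over 6 arrays, strain pairs, their difference and copy A minus copy B were tested with limma 3.58.1 in R 4.3.3, with Benjamini-Hochberg adjustment over all genes or all 61 pairs. SE is limma's moderated error, and SD is over arrays. The labels call the arrays biological replicates, and their number limits the precision. Genes given in full were RPS31, the 6 with the smallest p, the 3 highest means, 5 pairs with the smallest p and 3 genes with the largest strain difference. Others were named after their values were seen. Values of 7 RPS genes are counted but not reported here by name. The members and lists were chosen with earlier results of these data known, and the groups by place and conservation of the protein came from general knowledge. The scripts were tested on simulated data.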

Additional observations from a re-analysis of the deposited data

Results flagged for a closer look

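Among 20 RPS genes examined array by array and the median of all RPS genes, 1 array value stood far from the others of its gene. RPS16A had a log2 ratio of -0.124 on array 1, while its other 5 arrays lay between -1.42 and -1.05, and the gap passed Dixon's 95% limit for 6 values. Chance flags about 1 in 20 groups. Without array 1 the RPS16 pair did not pass an adjusted p of 0.05 (limma).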

How the results depend on the processing

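The count of RPS genes lower at an adjusted p of 0.01 (limma) was 25 as reported, with 3.96% of all genes. It was 38 with plain background subtraction and 38 with a normexp offset of 0, each with 7.15% of all genes. With a dye effect in the model it was 15 (2.3%), and with a fixed term for each slide 0 (0.016%). With each array left out in turn it was 1 to 23 (0.032% to 4.06%). The share of all genes thus changed as well, and the cause was not tested. At 0.05 the count ran from 34 to 48 over all settings (51 RPS genes remained with genes above median intensity). The share of all genes there ran from 6.78% to 19%. No RPS gene was higher, and the median ratio stayed between -1.33 and -0.95. RPS pairs that differed numbered 4 as reported, 6 with no background correction, 2 with every spot on its own, 3 with median normalization, plain subtraction, a dye effect, scaling between arrays or an offset of 0, and 1 to 4 with each array left out. No RPS gene differed between strain pairs under any setting. No RPS gene given array by array changed sign, nor did the 10 assembly, bound protein or regulator genes named, whose settings were added after seeing the data. No spot reached 60000 scanner units, so leaving out bright spots changed nothing. The wild type signals of RPS28A, RPS28B, RPS30B, RPS14B, RPS22B and RPS27A lay near background on some arrays. So did those of RPS9A, RPS30A, RPS14A, RPS10B and RPS18B, which were called at 0.05. This limits the ratios of these genes and the differences between copies that include them.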
